A study of Mus musculus with 4 samples.

Results

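The axon guidance ligands and receptors examined here are 69 of the 21755 protein-coding genes on chromosomes 1 to 19 and X. They are the genes of the semaphorin, plexin, ephrin, Eph, Slit, Robo, netrin and Unc5 families, together with Dcc, Nrp1 and Nrp2. They were picked by gene symbol in the GENCODE M21 annotation of mm10, by a rule that uses no measured value but was set with earlier results of these data known, and comprise 35 ligands and 34 receptors. Binding of CTCF to these genes was mapped with ChIP-seq (chromatin immunoprecipitation followed by sequencing) in the hippocampus of B6CASTF1/J male adult mice aged 2 months, which carry 1 genome of a C57BL/6 parent and 1 of a CAST parent. The 4 libraries form 2 biological replicates of 2 technical libraries each, and each replicate is a pool of 7 tissue samples. A single donor entry is listed for both pools, and the labels do not say whether their animals were separate. No treatment, genotype or age was varied, so no conditions could be compared, and the values below describe where CTCF was bound.

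CTCF is a zinc-finger protein that binds DNA at a long, directional motif and, together with cohesin, anchors chromatin loops and separates regulatory domains. Its sites often lie at promoters and inside long genes. Axon guidance molecules steer growing neurites: semaphorins signal through plexins and neuropilins, ephrins through Eph receptor tyrosine kinases, Slits through Robo receptors, and netrins through Dcc and Unc5 receptors. In the hippocampus they are known for the layering and pruning of mossy fibres and for the shaping of synapses in the adult. CTCF occupancy does not measure expression, so the labelled tissue could not be checked by marker genes, and nothing below says how strongly a gene was transcribed.

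The sequences under the strongest peaks are shown first, since they show how closely the bound DNA of these genes matched the CTCF core motif of 12 bases. Capitals mark the closest 12-base match within 50 bp of the summit, with 9 bases on each side, written 5′ to 3′ on the strand of the motif. The sequences were read from the GRCm38.p6 reference, the assembly that mm10 names, and not from the hybrid's own alleles.
Ephb1 promoter: cctaaatcaCCACAAGAGGGAgcgcgatca
Sema6b promoter: cataataagCCGGTAGGGGGCacgcgagtc
Sema4c promoter: ggttcttggCCGACAGGGGGCgtccgcaag
Robo3 promoter: tcgcttctgCCAGTAGGCGGCgctgaagcc
Unc5b upstream: tcgcggatgCCACTAGGCGGCgcactgcag
Unc5b intron 3: ccaccgtggCCACTAGGGGGCagggcatgc
Slit3 intron 4: tctctttggCCAGCAGGTGGCagcctggag
Sema3b intron 9: aagaagcagCCACGAGGGGGCagtagagac
Epha3 upstream: gcacgccctCCACTAGAGGGCgaaggagag

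The 4 promoter sequences come from the 4 strongest promoter peaks, and none of them is an exact copy of the motif. An exact copy here has an allowed base at each position, so exact copies can differ from each other. They were rare in these genes, at 1.72% of promoter summits and 10.3% of window summits. Ephb1 (match at chr9:102354896-102354907, minus strand) and Sema4c (chr1:36557253-36557264, minus strand) differed from it at 2 bases. Sema6b (chr17:56132919-56132930, plus strand) and Robo3 (chr9:37430733-37430744, plus strand) differed at 1 base. Away from promoters, exact copies lay in intron 3 of Unc5b (chr10:60779833-60779844, plus strand), in intron 4 of Slit3 (chr11:35451781-35451792, minus strand) and upstream of Epha3 (chr16:63872519-63872530, plus strand). The sites upstream of Unc5b (chr10:60835154-60835165, plus strand) and in intron 9 of Sema3b (chr9:107602221-107602232, plus strand) had 1 mismatch. All 5 of these distal matches lay on the strand opposite to their gene. Below, a motif match means at most 1 mismatch within 50 bp of the summit on either strand.

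At the promoter of Epha1, an Eph receptor of epithelia, the peak fell inside the annotated RefSeq promoter window, and the whole window is shown so that the match can be seen in its place. It runs from 250 bases before the start of transcription to 50 after it (GRCm38.p6, chr6:42373219-42373518, minus strand). Capitals mark the match, which has 1 mismatch, lies on the strand of the gene and starts 184 bases before the start site.
Epha1: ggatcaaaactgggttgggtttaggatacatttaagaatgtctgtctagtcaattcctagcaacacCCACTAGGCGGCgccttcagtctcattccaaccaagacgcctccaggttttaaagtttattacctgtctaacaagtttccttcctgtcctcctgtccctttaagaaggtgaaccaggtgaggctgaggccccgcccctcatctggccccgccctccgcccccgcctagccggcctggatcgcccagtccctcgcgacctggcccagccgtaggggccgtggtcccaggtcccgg

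RefSeq lists promoter windows for 59 of the 69 genes. A summit fell inside such a window at 12 of the 69 genes. Among these windows only that of Epha1 held a match with at most 1 mismatch, so it is not typical of them. In the others the closest 12 bases had 2 or 3 mismatches. Of 75 such windows 4 (5.33%) held a match, against 1421 of 32619 windows over all genes (4.36%). A match is a description of the letters in a window and not of binding.

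A gene is called occupied here when a peak summit lay 1 kb or less away from an annotated TSS (transcription start site). The main list holds 90278 peaks at an IDR (irreproducible discovery rate) of 0.05, a measure of how well peak ranks recur between the replicates. Of the axon guidance genes 44 of 69 were occupied, 63.8% (95% exact Clopper-Pearson interval 51.3 to 75.0), against 38.0% of all protein-coding genes. Ligands and receptors had like shares, 22 of 35 ligands (62.9%, interval 44.9 to 78.5) and 22 of 34 receptors (64.7%, interval 46.5 to 80.3). The 44 genes held 58 distinct promoter summits, of which 20 lay downstream of the TSS, at a median distance of 264 bp in either direction. At least 2 promoter summits were found at 10 of 69 genes (14.5%, interval 7.17 to 25.04), against 8.73% of all protein-coding genes. Summits of the same or overlapping peaks, such as those of Plxna1 and Efna2, were counted separately in these numbers. With overlapping peaks reduced to the strongest, 53 promoter summits remained, and the share of genes with at least 2 was not recomputed. The intervals cover counting error over genes only, take the genes as independent, and are no test of the list against other genes.

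Promoter base composition moved with this share. Promoters rich in CpG were more frequent among the guidance genes, 50 of 69 (72.5%, interval 60.4 to 82.5), against 49.5% of all protein-coding genes. Among genes with a CpG-rich promoter, 34 of 50 guidance genes were occupied (68.0%, interval 53.3 to 80.5), against 57.5% of all such genes. Among genes without one, 10 of 19 guidance genes were occupied (52.6%, interval 28.9 to 75.6), against 18.9% of all such genes. These groups differed in CpG ratio. At ratios of 0.4 to 0.6, 6 of 11 guidance genes were occupied, against 41.0% of all 2937 genes. At 0.2 to 0.4 it was 1 of 3, against 14.7% of 3549 genes. At 0.2 or lower it was 1 of 3, against 4.29% of 4171 genes. The shares of all protein-coding genes were also weighted to the CpG ratios of the guidance genes, in 5 bins. The background was then 50.4%, against 63.8% of the guidance genes (interval 51.3 to 75.0). This weighting was done for the main list only and is no test. The part of base composition in the difference was not tested.

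**Figure D1:**
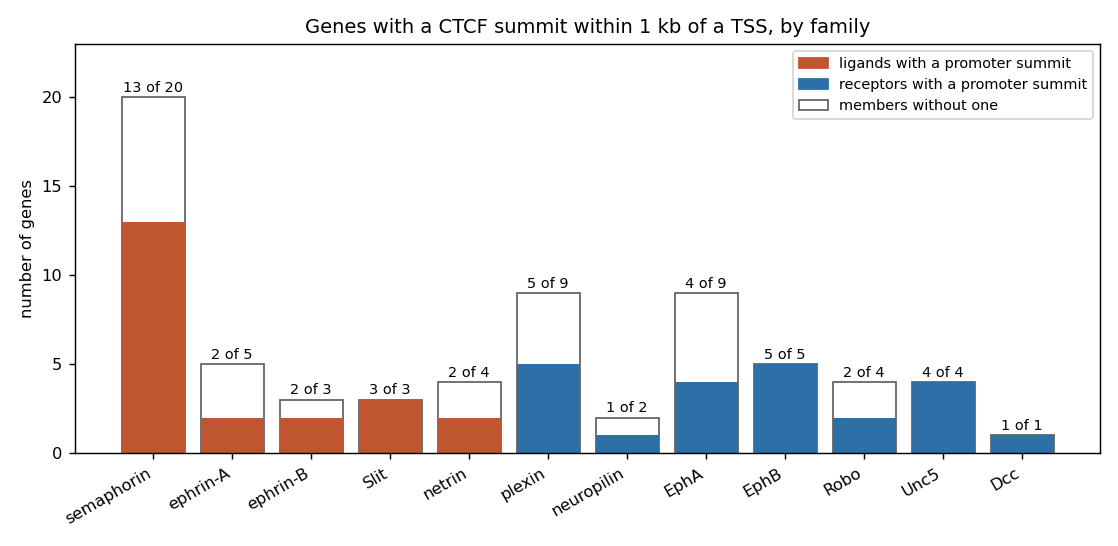
Number of genes per family (y axis) with a CTCF summit within 1 kb of a TSS, filled orange for ligands and blue for receptors, and without one, left white. All members of the EphB, Slit and Unc5 families were occupied, against 2 of 5 ephrin-A and 4 of 9 EphA genes.

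The number of occupied members varied between families. Over all protein-coding genes the share was 38.0%, or 50.4% when weighted to the CpG ratios of the 69 guidance genes. All 5 EphB receptors, all 3 Slits, all 4 Unc5 receptors and the netrin receptor Dcc had a promoter summit. Semaphorins were occupied at 13 of 20 genes. By class these were 5 of the 7 secreted class 3 genes, 3 of 6 in class 4, both in class 5, 2 of 4 in class 6, and Sema7a, which is anchored to the membrane by a lipid. Plexins were occupied at 5 of 9 genes, EphA receptors at 4 of 9, ephrin-A ligands at 2 of 5, ephrin-B ligands at 2 of 3, Robo receptors at 2 of 4, netrins at 2 of 4 and neuropilins at 1 of 2. These counts are small: the exact interval for EphB runs from 47.8% to 100% and that for EphA from 13.7% to 78.8%. Differences between families were not tested.

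**Figure D2:**
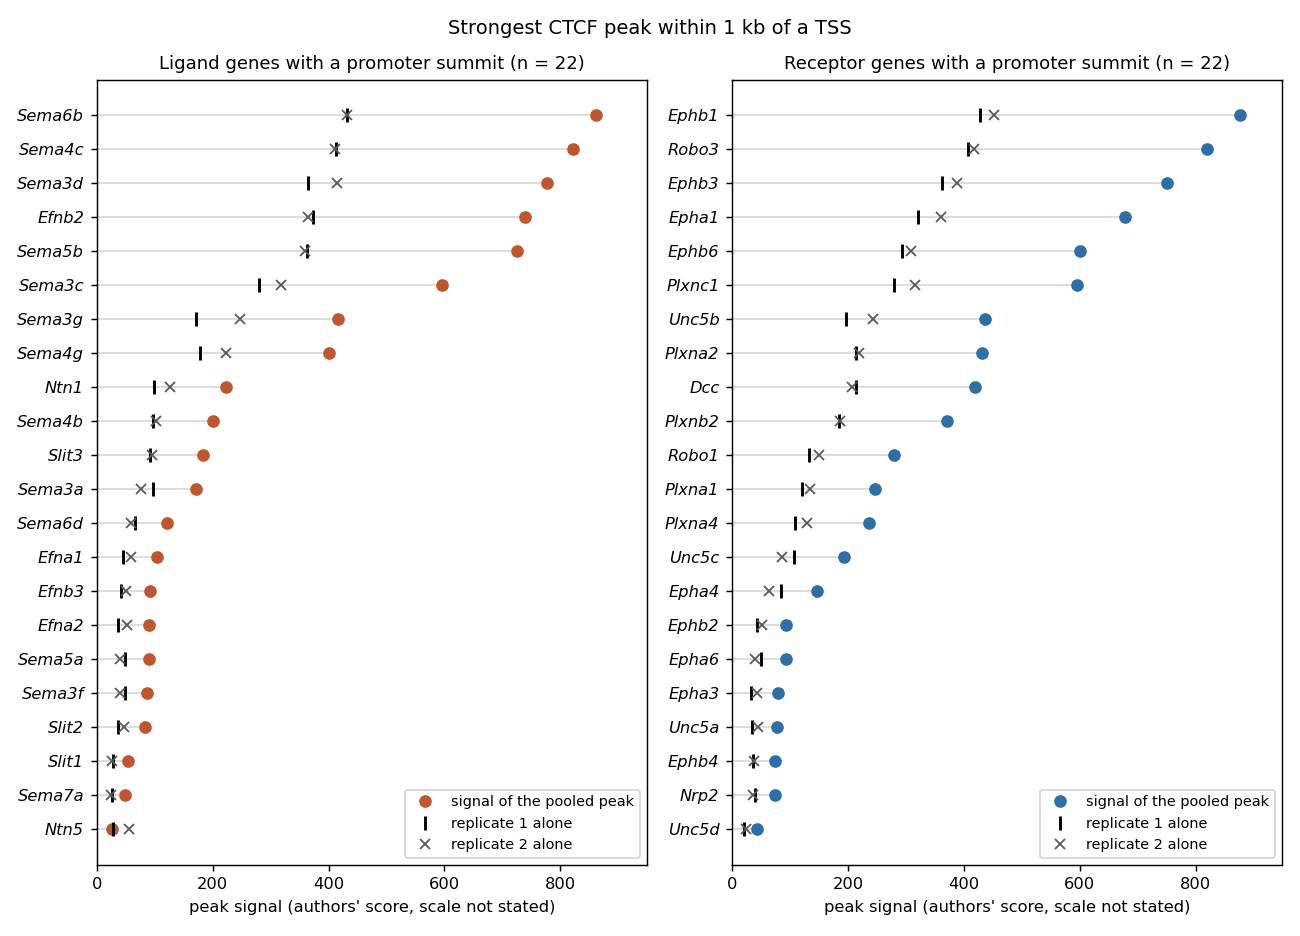
Signal of the strongest promoter peak of each occupied gene (x axis, authors' score), for ligands at left and receptors at right, with filled points for the pooled peak, vertical ticks for replicate 1 and crosses for replicate 2. Signals run between 877 at Ephb1 and 25.6 at Ntn5, and replicate values of each gene lie close together except at the weakest peaks and at a few others such as Sema3g.

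Promoter signals are given as the deposited peak score, whose scale is not stated and which is used only to rank peaks within this list. A pooled value is followed by the values of the peaks of replicates 1 and 2 assigned to it. The median strongest promoter signal was 211 in the occupied guidance genes, against 197 in all occupied protein-coding genes, and it was 177 in ligands and 263 in receptors.

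Among ligands, Sema6b had the strongest promoter peak. Sema6b, a transmembrane semaphorin, reached 862 (replicates 431 and 432) in intron 1, 924 bp downstream of a TSS. Sema4c, the ligand of plexin-B2, reached 821 (413 and 411) 261 bp downstream of a TSS. Sema3d, a secreted semaphorin, reached 777 (365 and 415) 27 bp upstream of its nearest TSS with no motif match. Both replicates were high at each of these 3 genes. Efnb2, a transmembrane ephrin, followed with 739 (373 and 364), and its summit also lay within 1 kb of the TSS of a neighbouring transcript. Sema5b reached 726 (364 and 360), 958 bp upstream. Sema4g, at 400 (179 and 223), held the 1 exact motif copy among the promoter summits, 38 bp upstream of the TSS and on the gene's strand. Ligands of the other families were lower. Netrin-1 (Ntn1), which attracts axons through Dcc, had 222 (98.3 and 126). Slit3 had 183 (91.2 and 94.9) and Slit2 82.3 (37.4 and 47.5). Efna1, a lipid-anchored ephrin, had 105 (45.4 and 59.3).

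Among receptors, Ephb1, a receptor for B-type ephrins, had the strongest promoter peak of all 69 genes, 877 (428 and 453), 216 bp upstream of its TSS. Robo3, a receptor that governs midline crossing of commissural axons, reached 819 (407 and 417), 600 bp upstream of the nearest TSS and within intron 1 of its principal transcript. Ephb3 reached 750 (362 and 389) and carried another summit of 161. Epha1 reached 679 (321 and 361), Ephb6, an Eph receptor without kinase activity, 601 (293 and 309), and Plxnc1, the receptor of Sema7a, 596 (279 and 316). Unc5b, a netrin receptor, reached 437 (196 and 242) and Dcc, the receptor through which netrin-1 attracts axons, 419 (214 and 206). Nrp2, which pairs with plexins to bind Sema3f, was at 73.5 (38.8 and 35.4). Unc5d was the lowest occupied receptor gene, at 42.7 (20.1 and 23.8).

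Peaks near the lower end rested on less. The weakest occupied ligands were Ntn5 at 25.6, Sema7a at 49.2 and Slit1 at 53.1. The Ntn5 summit lay 862 bp from a TSS beside a far stronger summit of 819 at 1085 bp, and Ntn5 was no longer occupied when overlapping peaks were reduced to the strongest. The 4 genes with the most promoter summits held 3 each: Plxna2 (431, 247 and 182), Sema4c (821, 136 and 115), Sema6d (121, 121 and 113) and Unc5c (192, 115 and 113). The Plxna2 summits of 431 and 182 lay in the same called peak. Plxna2 and Sema4c combined a strong summit with weaker ones, whereas the summits of Sema6d and Unc5c were all below 200.

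The 25 genes without a promoter summit were Efna3, Efna4, Efna5, Efnb1, Epha2, Epha5, Epha7, Epha8, Epha10, Nrp1, Ntn3, Ntn4, Plxna3, Plxnb1, Plxnb3, Plxnd1, Robo2, Robo4, Sema3b, Sema3e, Sema4a, Sema4d, Sema4f, Sema6a and Sema6c. At 18 of them the ranked list held a candidate peak near a TSS that missed the reproducibility threshold. The strongest candidate was at Nrp1, with a signal of 90.0 and an IDR score of 390 where 540 was needed. The remaining 7, Epha2, Epha8, Ntn3, Ntn4, Plxnb1, Robo4 and Sema3b, had none.

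The 1 kb limit split some peaks of similar position. Just inside it lay the summits of Ephb6 (987 bp from the TSS, signal 601), Sema5b (958 bp, 726), Sema6b (924 bp, 862) and Plxnb2 (902 bp, 371). Just outside it lay summits of Epha7 (1056 bp, 108), Efnb1 (1074 bp, 714) and Nrp1 (1076 bp, 656), genes counted as not occupied. Strong summits also stood a little farther out at Sema6a (1508 bp, 813) and Efna4 (1572 bp, 812). With a 5 kb limit 59 of 69 guidance genes were occupied, against 59.6% of all protein-coding genes.

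The same promoters could be read in 3 further deposited lists. Replicate 1 alone, replicate 2 alone and the pooled reads gave fewer occupied genes, and 29 of 69 guidance genes (42.0%) had a promoter summit in each of the 4 lists, against 28.6% of all protein-coding genes. The lists share reads, so they are not independent. All 5 occupied plexins were among the 29, with 9 semaphorins, 3 EphB and 3 EphA receptors, 2 Slits, 2 Robo and 2 Unc5 receptors, Efnb2, Ntn1 and Dcc. No neuropilin and no ephrin-A gene was. Of the 15 occupied genes missing from a list, 14 had a promoter signal of at most 105, the value of Efna1. The exception was Sema6b, whose peak of 862 was absent from the replicate 1 list and from the pooled-read list, where the nearest summit lay 882 bp away. In the ranked list of replicate 1, a summit 10 bp from it had a signal of 431 and an IDR score of 386, below the 540 that the thresholded lists require. The complete occupancy of the EphB, Slit and Unc5 families therefore rested on Ephb2, Ephb4, Slit1, Unc5a and Unc5d, whose promoter peaks were at 93.3 or below. Another 5 genes, Epha5, Nrp1, Sema4d, Sema4f and Sema6a, had a promoter summit in another list but not in the main one.

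All 69 guidance genes had at least 1 summit in the gene body with 10 kb on each side, against 81.0% of all protein-coding genes. The guidance genes are long, with a median of 46307 bp against 17414 bp, and longer genes have larger windows. The part of gene length in this difference was not tested. The windows held 514 distinct summits, with a median of 6 per gene. Introns held 333 of the 514 (64.8%), promoters of any gene 84, intergenic sequence 66, coding exons 15 and 3′ untranslated regions 12. Intron 1 held 97 of the 309 summits placed in an intron of the gene's own principal transcript.

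Per 100 kb of window the guidance genes had a median of 6.73 summits (quartiles 3.02 and 11.5), against 6.004 (quartiles 2.37 and 10.8) in all protein-coding genes. Set against genes of the same length decile, 43 of 69 lay above their decile's median (62.3%, interval 49.8 to 73.7), against 50% of all protein-coding genes by construction. The longest decile, of genes of 111 kb or longer, went the other way. It held 30 of the 69 genes, of which 12 lay above its median, with a median of 3.06 summits per 100 kb against 3.91 for all genes of that decile. Those 30 genes were longer than the decile, with a median of 299 kb against 188 kb. Of the 39 shorter guidance genes 31 lay above their decile's median. Ligand genes had a median of 8.12 summits per 100 kb and receptor genes 5.63, and ligand genes were shorter, with a median of 28976 bp against 92200 bp.

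**Figure D3:**
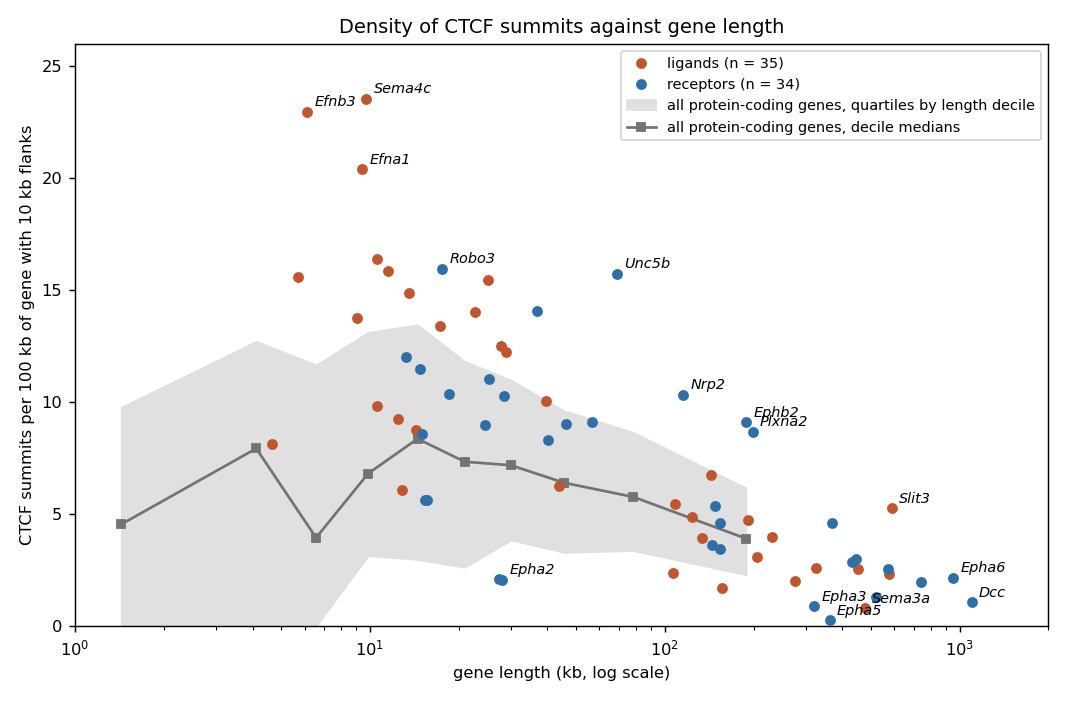
CTCF summits per 100 kb of gene with 10 kb flanks (y axis) against gene length in kb (x axis, log scale), for ligands in orange and receptors in blue, with decile medians and quartiles of all protein-coding genes in grey. Most short guidance genes lie above the grey line, with Sema4c highest at 23.6, whereas long genes such as Epha5 (0.261) and Sema3a (0.805) lie far below it.

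The densest guidance genes were Sema4c with 23.6 summits per 100 kb, Efnb3, an ephrin that blocks axons at the midline, with 22.98, and Efna1 with 20.4. All 3 genes are shorter than 10 kb, so most of their windows were flank. The gene body held 2 of the 7 window summits at Sema4c, 2 of 6 at Efna1 and 0 of 6 at Efnb3. Among longer genes, Unc5b stood at 15.7 and Nrp2 at 10.3. The sparsest were Epha5 with 0.261, Sema3a, a repellent that acts through Nrp1, with 0.805, and Epha3 with 0.881. Epha5 spans 363 kb and held 1 summit, of signal 149. Epha3 spans 321 kb and held 2 summits in its body, both near its 5′ end, which left a stretch of 314 kb, 97.8% of the gene, with none. Robo2 had a stretch of 267 kb without a summit and Sema3a 235 kb. Dcc, the longest of the genes at 1097 kb, held 11 in its body and had a longest empty stretch of 230 kb.

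The strongest peak of the guidance genes lay outside a promoter, and the Ephb1 promoter peak of 877 came next. Unc5b held the strongest, a peak of 927 (452 and 479) 3568 bp upstream of its TSS, and another of 867 (431 and 439) in intron 3. Slit3, whose protein repels axons through Robo receptors, had a peak of 866 (402 and 466) in intron 4. Sema3b had 861 (424 and 439) in intron 9, and Epha3 had 856 (424 and 435) 8369 bp upstream. Both replicates were above 400 at each of these peaks. A peak among the strongest 10% of the whole list, with a signal of at least 718, was present in the window of 43 of the 69 genes (62.3%, exact 95% interval 49.8% to 73.7%), against 30.7% of all protein-coding genes. Longer genes have larger windows, and all protein-coding genes weighted to the length deciles of the guidance genes gave 41.3%. These included all 5 ephrin-A genes, all 3 Slits and 15 of 20 semaphorins, but neither Dcc nor any of Unc5a, Unc5d, Plxna1 and Plxnc1. Peaks of that strength made up 63 of 514 window summits (12.3%) and 8 of 58 promoter summits (13.8%), where the whole list has 10% by definition.

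The order of genes by count differed from that by density. Slit3 held the most summits, 32 in its window of 587 kb and flanks, followed by Epha6 with 21, Ephb2 and Plxna2 with 19 each, and Unc5c with 18. In the other families the highest counts were Robo1 with 15, Sema6d and Nrp2 with 14 each, Dcc with 12, Ntn1 with 10, and Efna1, Efna5 and Efnb3 with 6 each. Of the 32 Slit3 summits 13 lay in intron 4. Ephb2, a receptor that clusters glutamate receptors at synapses, held 5 peaks of that strength. They were at 812 (391 and 423) 5313 bp upstream, 850 (415 and 436) in intron 3, 781 (402 and 387) in intron 6, and 834 (407 and 431) and 816 (415 and 408) in exon 16, in the 3′ untranslated region. Its promoter peak was at 93.3 (42.8 and 51.5). Nrp2 likewise had 3 peaks of that strength, 757 (363 and 396) upstream, 726 (355 and 373) in intron 2 and 774 (371 and 403) in intron 15, beside a promoter peak of 73.5.

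**Figure D4:**
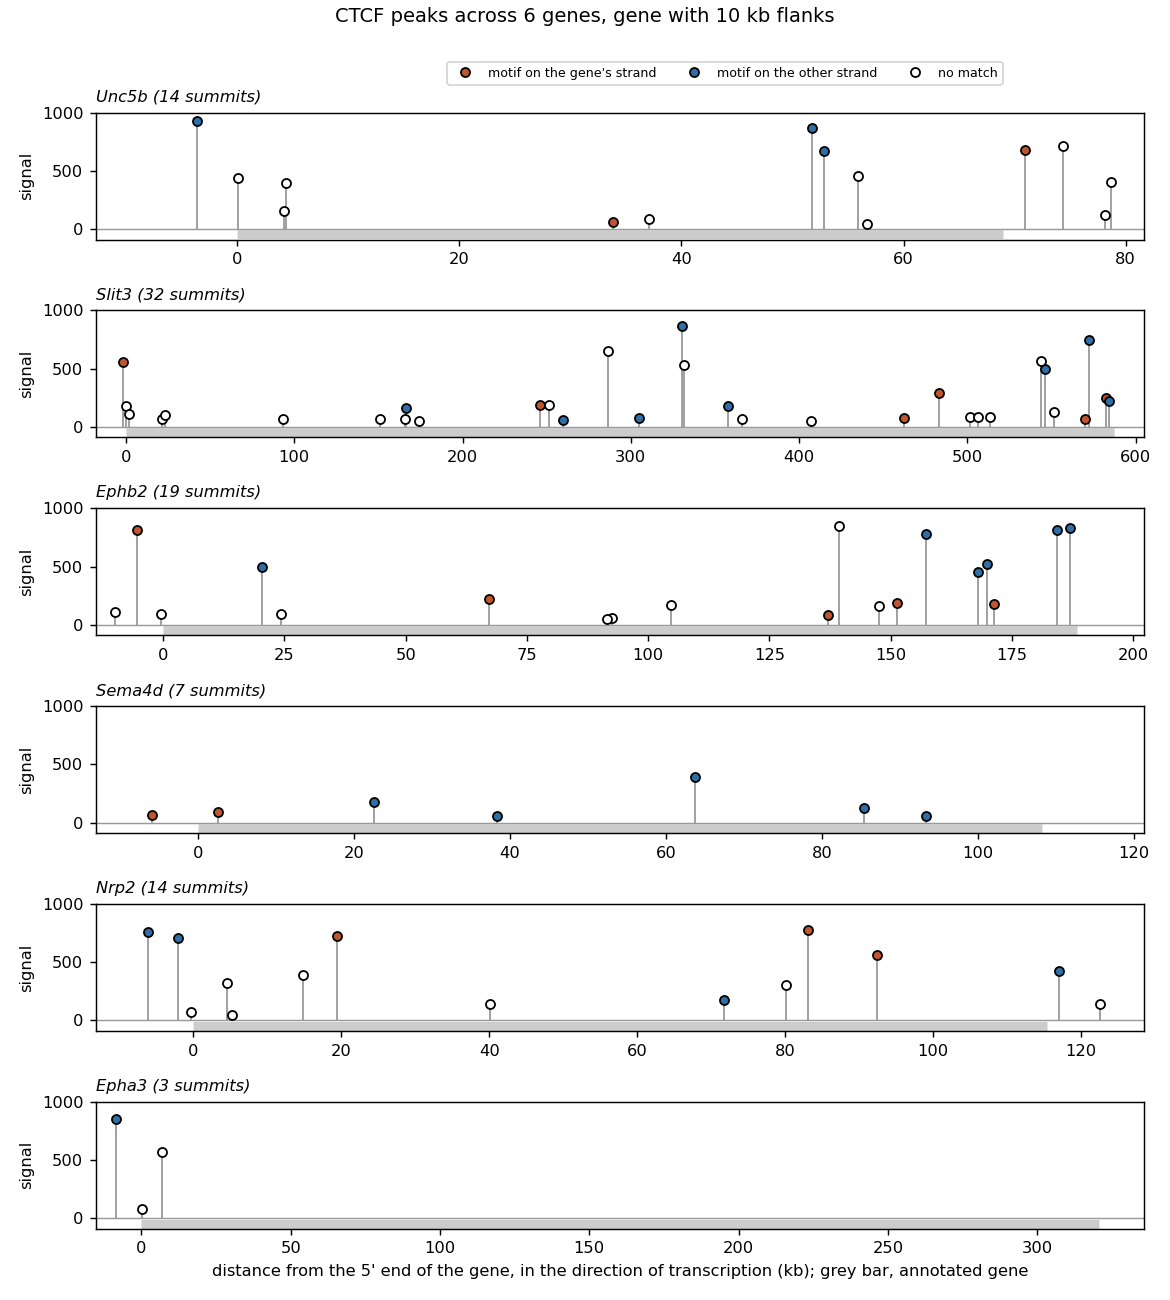
CTCF peaks across Unc5b, Slit3, Ephb2, Sema4d, Nrp2 and Epha3, with signal (y axis, authors' score) against distance from the 5′ end of the gene in kb (x axis); orange points carry a motif on the gene's strand, blue points on the other strand, and open points no match. Slit3 and Ephb2 have summits along their whole length, whereas the 3 summits of Epha3 all lie within 10 kb of its 5′ end.

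Some of the guidance genes lie close to each other. The ephrin genes Efna1, Efna3 and Efna4 lie together on chromosome 3, with the TSSs of Efna1 and Efna4 56886 bp apart, Ephb2 lies beside Epha8 on chromosome 4, Robo3 beside Robo4 and Sema3f beside Sema3b on chromosome 9. Of the 514 window summits 3 fell into the window of more than 1 guidance gene, and all 3 were shared by Robo3 and Robo4. In each of these groups the occupied gene stood beside at least 1 without a promoter summit: Efna1, Ephb2, Robo3 and Sema3f were occupied, whereas Efna3, Efna4, Epha8, Robo4 and Sema3b were not. Among the occupied genes only Robo3 had a promoter summit in each of the 4 lists. The promoter peaks of Efna1, Ephb2 and Sema3f, at 105, 93.3 and 86.4, were each missing from at least 1 list. Efna4, counted as not occupied, had a summit of 812 at 1572 bp from its TSS. This pattern was not tested.

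A motif match lay within 50 bp of 246 of the 514 window summits (47.9%, interval 43.5 to 52.3), against 50.3% of all summits in the list. In windows of the same size 1 kb from these summits the share was 0.973%, against 1.25% for the whole list. At promoter summits of guidance genes the share was 12 of 58 (20.7%, interval 11.2 to 33.4), against 20.5% of all promoter summits of protein-coding genes. Outside every promoter it was 228 of 430 (53.0%, interval 48.2 to 57.8), against 54.0%. Stronger peaks held a match more often: 32.9% of summits with a signal below 100, against 37.6% over the whole list; 39.9% between 100 and 400, against 48.3%; 72.4% between 400 and 700, against 63.0%; and 73.2% above 700, against 73.6%.

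Single genes departed from these shares in both directions. Every window summit held a match at Sema4d (7 of 7), Sema4f (6 of 6) and Robo3 (6 of 6), while none did at Sema4c (0 of 7) and Efnb2 (0 of 4). Of the Robo3 summits 3 also lay in the Robo4 window. The absence of a match at Efnb2 did not go with weak signal, since 3 of its 4 peaks were at 436, 535 and 739. Nor did the matches at Sema4d go with strong signal: its 7 peaks had a median of 88.4 and a maximum of 392. These genes were picked for their counts after the values were seen.

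The strand of the motif differed between the parts of the genes. Counted as pairs of a gene and a summit, 31 of 44 motifs in the 10 kb upstream of guidance genes (70.5%) lay on the gene's strand, against 49.9% upstream of all protein-coding genes. Inside gene bodies 68 of 167 did (40.7%), against 51.7%. In the downstream flank 12 of 26 did (46.2%), against 53.4%, and within 1 kb of a TSS 6 of 12 did, against 55.6%. Single genes were uneven: all 6 motifs of Robo3 and all 5 of Dcc lay opposite to the gene, whereas all 5 of Efna5 lay on its strand. Of the Robo3 motifs 3 were also counted for the neighbouring Robo4, and there as on the gene's strand. Summits of 1 gene are not independent of each other, this split was chosen after the values were seen, and it was not tested.

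**Figure D5:**
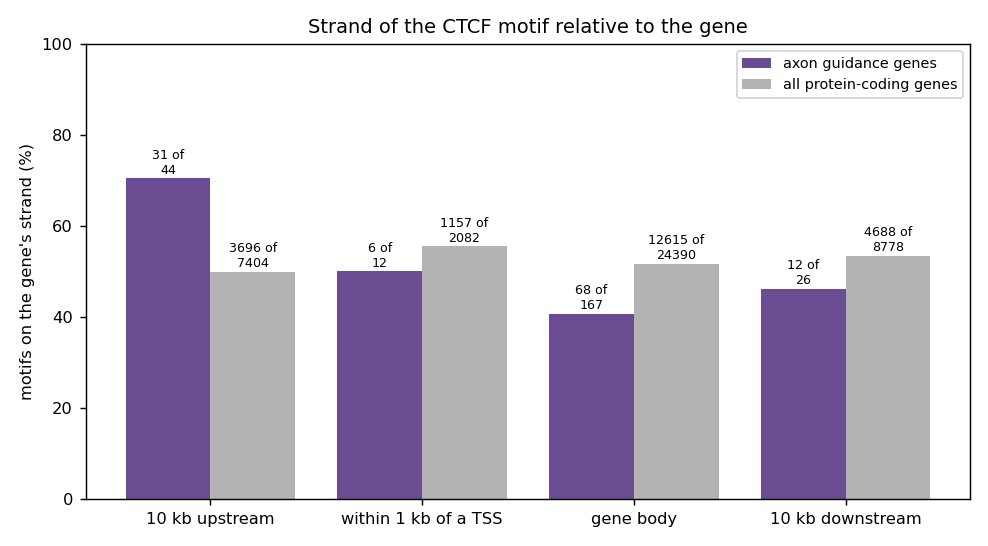
Share of CTCF motifs on the gene's strand (y axis, %) by position relative to the gene (x axis), for axon guidance genes in purple and all protein-coding genes in grey; labels give the counts. Guidance genes stand at 70.5% upstream and 40.7% in the gene body, and all protein-coding genes at 49.9% and 51.7%.

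The replicates gave similar signals at these peaks. After the median over the list was subtracted, the log2 ratio of replicate 2 to replicate 1 had an SD of 0.32 over the window summits, against 0.41 over all peaks. It passed 1 in size at 3 summits. In the Slit1 gene a summit of 28.1 was assigned replicate signals of 17.7 and 371, a ratio of 4.30 on the log2 scale. In that case the replicate 2 value belonged also to a neighbouring summit of 730, and at a Plxna1 promoter summit of 155 (61.6 and 134) it likewise belonged to a neighbour. In intron 3 of Efna3 a summit of 118 had 12.8 and 109 and shared no replicate peak with another. It lay, however, in the same called peak as a summit of 764 (378 and 389). Of the 514 window summits 30 shared a replicate peak with another pooled peak, among them the weaker summit of Efna2 at 13.3, which carried the replicate signals of its neighbour. Over the other 484 the SD was 0.26. With 1 value per replicate, no single peak could be tested.

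Other genes of the pathway were counted in the same way. The list of 91 such genes was compiled for this report. Of these genes 50 had a promoter summit (54.9%, interval 44.2 to 65.4), against 38.0% of all protein-coding genes, unweighted for CpG. By role these were 5 of 12 other guidance cues, 11 of 18 other receptors and co-receptors, 23 of 38 kinases, GTPases and their regulators, and 11 of 23 cytoskeletal and adaptor proteins. The strongest promoter peak of each role stood at Flrt3 (685), a membrane protein that binds Unc5 receptors, Lingo1 (786), a co-receptor of the Nogo receptor, Srgap1 (704), which acts downstream of Slit and Robo, and Mical2 (814), an enzyme that oxidises actin. The guidance ligands and receptors (63.8%) and the other genes of the pathway (54.9%) had overlapping intervals, and the difference was not tested.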

How the data were processed

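CTCF ChIP-seq peaks of 4 libraries, in 2 biological replicates, were used as deposited on mm10; the sources used here give no aligner, peak caller, version or read depth, and an input control named in the labels was not used here. Both libraries of a replicate went into 1 alignment, per the labels' notes, so no value exists per library. The peak signal is a score the authors deposited, with no stated scale. The deposited IDR score reaches 540 at an irreproducible discovery rate (IDR) of 0.05, the threshold of the main list, which compares the replicates and holds 90278 peaks. The deposited summit offset gave the summit. The replicate signals come from the deposited ranked list; of its input peaks 78.1% and 80.0% were found, by coordinates and signal, in the ranked lists of replicates 1 and 2. Reads of a hybrid were placed on a reference genome, and the effect on single sites is unknown.

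Gene and TSS positions are those of GENCODE M21 (basic set), and all coordinates are 1-based. Exon and intron numbers follow the APPRIS principal transcript, the one with the longest coding sequence where there are several. A CpG-rich promoter had an observed-to-expected CpG ratio of at least 0.6 and at least 50% GC within 500 bp of the TSS. Where a gene had several TSSs, the TSS with the highest CpG ratio was used. Occupancy counted a summit at any TSS, so the 2 can refer to different TSSs of a gene. The CTCF core motif was searched on both strands, a search tested on simulated data. Named genes were, by rule, the strongest promoter peak and the most summits in each family, the 5 strongest promoter and 5 strongest other peaks, the 3 highest and lowest densities, genes with 3 or more promoter summits, and unoccupied genes by name; other genes were named after their values were seen. Members and lists were chosen with earlier results of these data known. The design allowed no test, so counts are given with 95% exact intervals that cover counting error only. Alternatives were other peak lists, IDR 0.01, other promoter distances, flanks, annotations and motif limits. Computations used pysam 0.24.0, scipy 1.17.1, pandas 2.3.3, numpy 2.4.6, matplotlib 3.10.9 and Python 3.11.15.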

Additional observations from a re-analysis of the deposited data

How the results depend on the processing

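Of 75 values recomputed under 17 alternative settings, 68 stayed within their limit and 7 moved. The limit was 1.5 times for a count of genes and the exact 95% interval for a motif share. For the median density it was the 95% order-statistic interval over genes. The limit for counts is wide: both 34 of 69 and 59 of 69 occupied genes lay within it, and no gene count moved. The tally of values within their limits therefore says little about how stable the counts were. The median density was 4.32 summits per 100 kb with no flank. The motif share of window summits was 10.3% with no mismatch allowed, 71.0% with at most 2 mismatches and 42.8% within 25 bp of the summit. The motif share of promoter summits was 37.6% with a 5 kb promoter, 1.72% with no mismatch and 46.6% with at most 2 mismatches. With either replicate left out, 35 to 38 of 69 genes were occupied (17 to 18 ligands and 18 to 20 receptors), against 33.7% to 34.0% of all protein-coding genes. A window summit was then found at 67 to 68 of 69 genes, against 79.0% of all protein-coding genes. The median density was 5.57 to 6.15 with either replicate left out, and the motif shares were 46.4% to 49.8% (window) and 20.0% to 20.4% (promoter). The pooled-read list gave 34 of 69 genes occupied, against 31.2% of all protein-coding genes, and a 500 bp limit gave 35 of 69, against 30.3%. At IDR 0.01 there were 41 of 69, against 34.7%. Annotating all transcripts gave 52 of 69, against 43.9%. No paired analysis was possible because no result comes from a test between groups. Read depth is unknown, so no limit of detection could be set for the unoccupied promoters.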
